A study of Homo sapiens with 6 samples.

Results

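The genes described here are 37 genes of glycolysis and of the response to low oxygen, taken from a list of symbols. That list was chosen with earlier results of these data known. All 37 were found among the 20330 Ensembl genes listed for each library. Levels were measured by RNA sequencing in U251 cells, an established human glioblastoma line, in 3 control libraries and 3 libraries of cells with stable overexpression of the long noncoding RNA XLOC013218. The labels call the control cells only that, and do not say what vector they carry, whether the overexpressing cells are 1 clone or a selected population, or what oxygen level the cultures had beyond a 5% CO2 incubator. The series' design text calls the 3 libraries of each group independent biological replicates, and the p-values here measure the spread between these libraries.

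Glycolysis breaks glucose down to pyruvate in a preparatory phase that spends ATP and a pay-off phase that returns it, and lactate dehydrogenase then converts pyruvate to lactate. Many of these enzymes exist as isozymes from separate genes, and tumour cells, glioblastoma among them, are known for making lactate even where oxygen is present. HIF1A is the oxygen-regulated subunit of the transcription factor HIF-1, whose protein is hydroxylated by EGLN enzymes and degraded when oxygen is ample. When oxygen is low the protein accumulates and induces most of the glycolytic genes together with CA9, ADM, NDRG1, BNIP3 and others of the list.

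The tables give FPKM, a fragment count corrected for the length of the transcript and the size of the library, so levels can be compared between genes per length. Summed FPKM over the Ensembl genes lay between 598683 (control replicate 3) and 621922 (overexpression replicate 2), and the depth in reads is unknown. No row of the tables carries the name XLOC013218, so the level of the overexpressed RNA was not analysed here. All 7 markers listed for an astrocytic or mesenchymal glioma line averaged at least 1 FPKM, with summed levels of 8787 to 9351 FPKM in control cells against 8346 to 8718 FPKM in overexpressing cells. GFAP, an astrocyte filament protein, was at 41.6 ± 6.06 FPKM in control cells against 21.6 ± 7.91 FPKM in overexpressing cells (SD, n = 3 per group). Of the 6 immune markers only CD68, a lysosomal protein that many cell types express, averaged at least 1 FPKM, and CD3E was listed at 0 in all 6 libraries. The summed immune markers lay within 6.87 to 8.02 FPKM in the control libraries and 10.42 to 11.90 FPKM in the overexpression libraries. Of the 4 neuron markers 2 averaged at least 1 FPKM, SYT1, a synaptic vesicle protein, at 7.76 ± 0.670 and 8.45 ± 1.32 FPKM and SNAP25, a synaptic fusion protein, at 2.07 ± 0.251 and 1.92 ± 0.275 FPKM. The summed neuron markers ran from 9.63 to 10.45 FPKM in control libraries and from 8.70 to 11.32 FPKM with overexpression. Endothelial, epithelial, oligodendrocyte and blood or liver markers had no member at 1 FPKM or above.

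HIF-1 binds DNA at a core of the letters ACGTG or GCGTG, and the promoter sequences below show where these letters stand in 4 members on which the isozyme and level results turn. GAPDH had the highest level of the list, LDHA and LDHB are the subunits of 1 enzyme at very unequal levels, and PFKFB4 had the highest fold change estimate. The sequences are from RefSeq on GRCh38.p14, run 5′ to 3′ on the gene's strand, and are cut to the part of the 250 bases before the first listed start that lies in no GENCODE exon. Capitals mark ACGTG or GCGTG read on either strand, so CACGTG holds 2 overlapping matches.
GAPDH, chr12:6535014-6535263, plus strand: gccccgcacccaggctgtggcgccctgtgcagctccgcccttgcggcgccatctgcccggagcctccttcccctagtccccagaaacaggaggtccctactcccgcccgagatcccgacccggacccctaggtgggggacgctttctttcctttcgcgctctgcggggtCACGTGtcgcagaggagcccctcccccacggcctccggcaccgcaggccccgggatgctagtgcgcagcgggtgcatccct
LDHA, chr11:18394313-18394387, plus strand: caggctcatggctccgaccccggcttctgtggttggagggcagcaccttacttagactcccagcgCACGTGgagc
LDHB, chr12:21657843-21658092, minus strand: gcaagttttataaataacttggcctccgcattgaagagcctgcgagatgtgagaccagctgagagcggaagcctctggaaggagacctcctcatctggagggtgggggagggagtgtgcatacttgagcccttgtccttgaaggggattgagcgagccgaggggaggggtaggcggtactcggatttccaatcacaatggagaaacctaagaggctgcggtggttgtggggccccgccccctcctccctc
PFKFB4, chr3:48556891-48557053, minus strand: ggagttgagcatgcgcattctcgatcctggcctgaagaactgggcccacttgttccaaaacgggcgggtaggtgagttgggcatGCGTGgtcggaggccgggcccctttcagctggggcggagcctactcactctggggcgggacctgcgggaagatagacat

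Chromosome 8 was left out of the promoter search, and with it BNIP3L and NDRG1, and no window was found for SLC2A3. Promoter windows were found for 34 of the 37 members. Of the 34, 22 (64.7%) held 1 or more matches in the 250 bases before the start. Among 15843 protein-coding genes, also without chromosome 8, 50.4% did. BNIP3 had the most, with 6 matches, followed by LDHA and ALDOC with 5 each. LDHB, PKM, PGAM1, TPI1 and SLC2A1 were among those with 0 in this window. All 250 bases lay in GENCODE exons for SLC2A1, TPI1, ALDOC and some other members, and 175 of them for LDHA. Whether each window precedes the start used in these cells was not tested. A match is a string of letters and not a measured binding site.

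GAPDH, which oxidises glyceraldehyde 3-phosphate, ranked 7 among all Ensembl genes by mean FPKM, PKM (pyruvate kinase) 22, ENO1 (enolase 1) 36 and ALDOA (aldolase A) 47. At the other end, ALDOC (the brain aldolase), CA12 (a membrane carbonic anhydrase) and ANGPTL4 (a secreted inhibitor of lipoprotein lipase) averaged under 1 FPKM in every group and were not tested. The 16 tested glycolytic enzymes and lactate dehydrogenase subunits together took 1.89% ± 0.0373 of summed FPKM in control cells against 1.86% ± 0.0333 in overexpressing cells (SD, n = 3 per group). The 18 other tested members took 0.121% ± 0.00371 and 0.116% ± 0.00410.

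**Figure D1:**
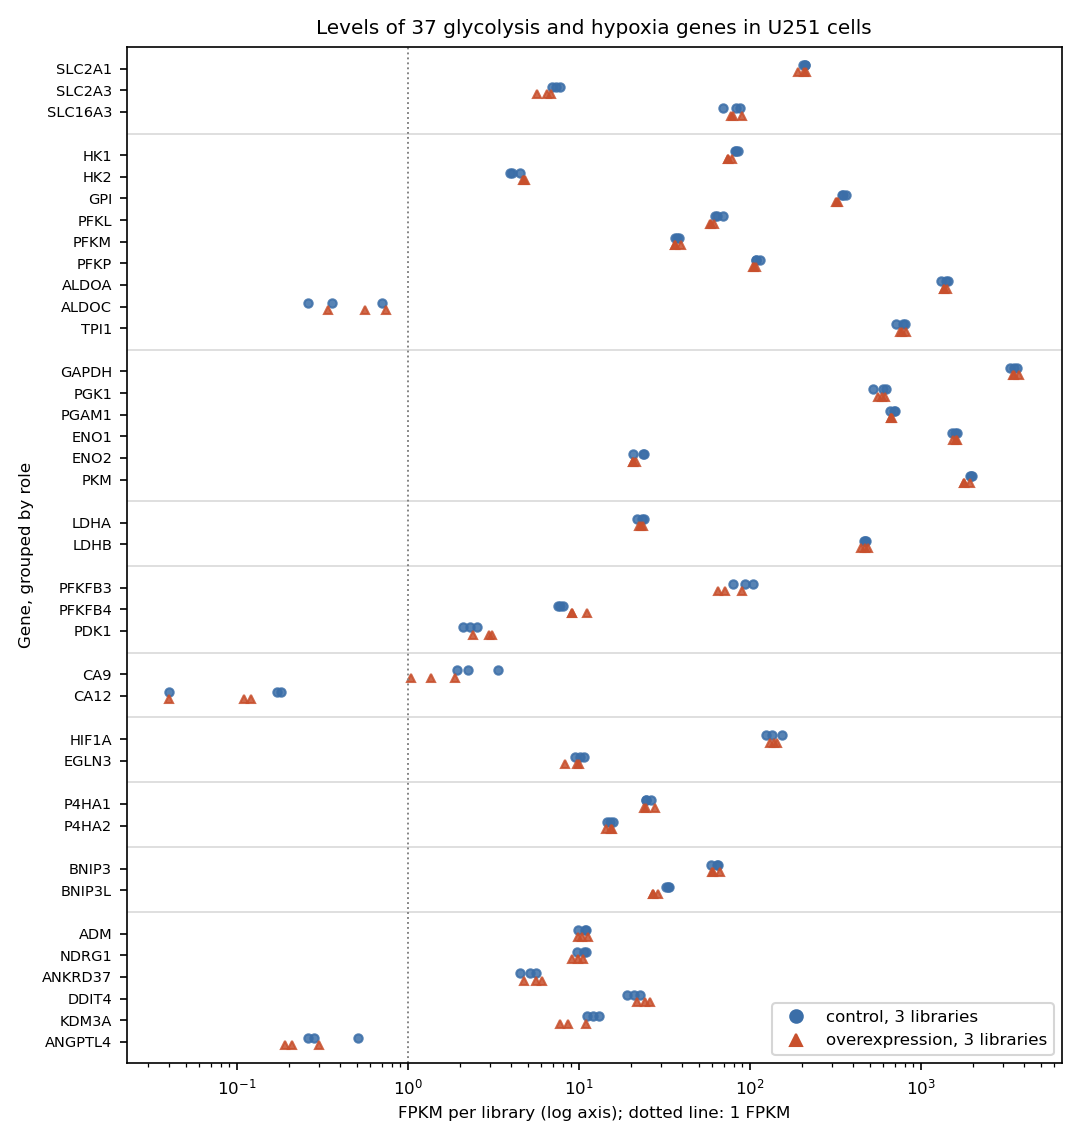
FPKM of each of the 37 genes in each library (log axis), with control libraries as circles and overexpression libraries as triangles, grouped by role. GAPDH lies between 3289 and 3758 FPKM in the 6 libraries, whereas ALDOC, CA12 and ANGPTL4 lie left of the dotted line at 1 FPKM.

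The comparison of the groups asked whether these genes differ when XLOC013218 is overexpressed. None of the 34 tested members passed an adjusted p of 0.05 in limma's moderated test on log2(FPKM + 1), with 0 higher, 0 lower and 34 not past the threshold, where 0.52% of all 11731 tested genes passed. Those were 61 genes, 37 higher (0.315%) and 24 lower (0.205%), or 30 higher and 31 lower after rescaling to TPM. At an unadjusted p under 0.05 in limma there were 9 members, 2 higher and 7 lower, which is 26.5% of those tested, against 12.7% of all tested genes. The groups did not overlap in 10 members, 2 higher (HK2 and PFKFB4) and 8 lower (SLC2A3, HK1, GPI, PFKL, PKM, CA9, BNIP3L and KDM3A), which is 29.4% of the 34, against 18.9% of all tested genes in either direction, 8.81% higher and 10.1% lower. Since the members were chosen with earlier results of these data known, these shares do not test the list. Over the tested members the median log2 fold change was -0.0046 and over all tested genes -0.0008. Of the estimates 16 were above 0 and 18 below, against 5834 above and 5897 below over all tested genes. After rescaling to TPM 9 were above and 25 below. In that setting the median log2 fold change was -0.018 over the tested members and -0.0142 over all tested genes. The split of all tested genes was not computed there.

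The 95% confidence intervals bound what these libraries leave possible. For all 16 tested glycolytic enzymes and lactate dehydrogenase subunits the interval of the log2 fold change lay within 0.5 of 0 on both sides, from a lower end of -0.27 for ENO2 to an upper end of 0.38 for HK2. Of the 18 other members, 14 had intervals within 0.5 of 0, and 4 reached further (CA9, KDM3A, PFKFB3 and PFKFB4). The intervals are not adjusted for the number of genes. In bulk RNA, fewer cells with a transcript and less of it per cell cannot be told apart.

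**Figure D2:**
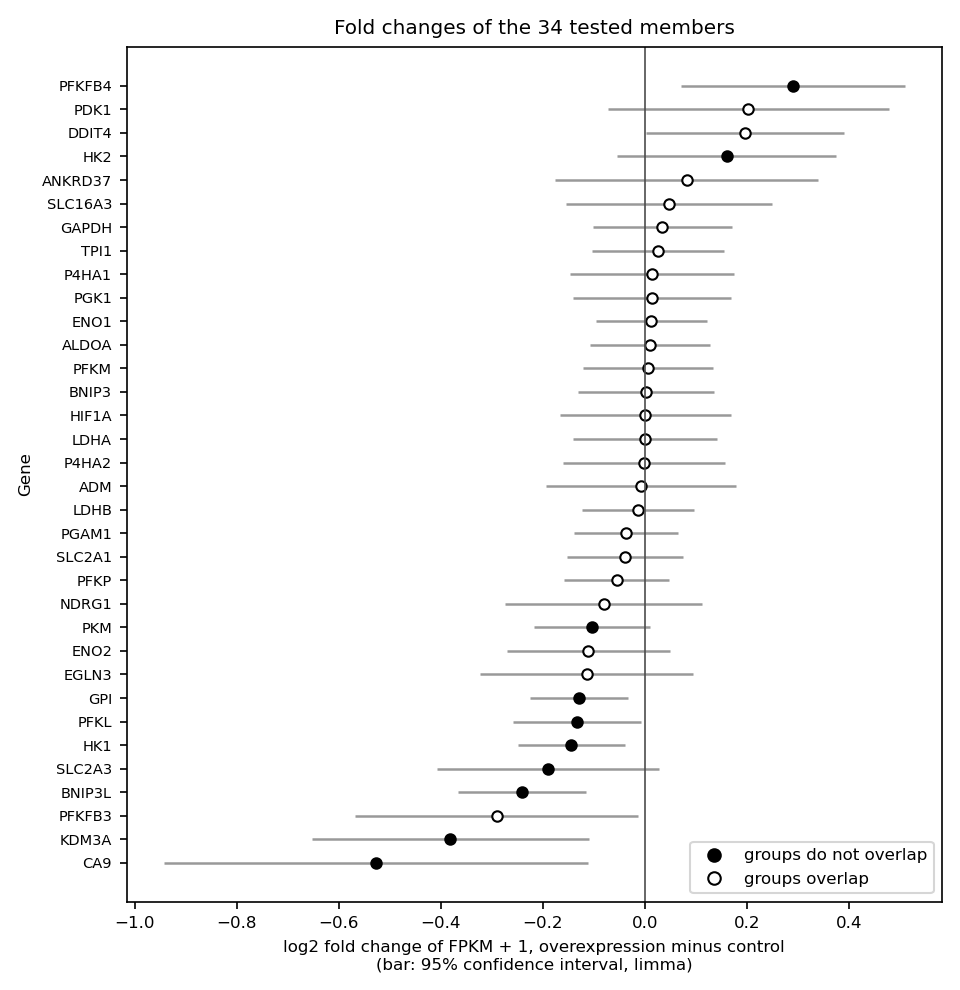
Log2 fold change of FPKM + 1 (overexpression minus control, horizontal axis) with its 95% confidence interval from limma for the 34 tested members, ordered by estimate. Filled points mark the 10 genes whose groups do not overlap; estimates run from -0.53 for CA9 to 0.29 for PFKFB4, and most intervals cover 0.

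Glucose enters cells through the transporters SLC2A1 (GLUT1) and SLC2A3 (GLUT3, the high-affinity neuronal form), and lactate leaves through SLC16A3 (MCT4). SLC2A1 was at 208.63, 210.41 and 205.01 FPKM in control libraries and 211.45, 190.08 and 206.27 FPKM in overexpression libraries, with overlap. SLC16A3 was at 79.4 ± 9.23 and 81.9 ± 6.95 FPKM (SD, n = 3 per group). SLC2A3 (ENSG00000059804, chromosome 12) was at 7.34, 6.92 and 7.70 FPKM in the control libraries and 5.63, 6.48 and 6.81 FPKM in the overexpression libraries. Its highest overexpression value lay just under its lowest control value, and it did not pass (log2 fold change -0.19, SE 0.096, limma adjusted p = 0.465; log2 fold change -0.12 without overexpression replicate 1). SLC16A3 overlaps CSNK1D on the opposite strand, which was at 130 ± 2.03 and 121 ± 5.45 FPKM. No source used here says whether counting used the strand. Across the list 13 members overlap another measured gene, 8 of them one on the opposite strand. EGLN3 overlaps SPTSSA on its own strand, which was at 21.7 ± 0.757 and 23.9 ± 1.56 FPKM.

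Hexokinases trap glucose in the cell, and HK1, the housekeeping form, far exceeded HK2, the inducible form. HK1 (ENSG00000156515, chromosome 10) was at 81.70, 83.01 and 85.45 FPKM in control and at 77.88, 74.21 and 74.02 FPKM in overexpressing cells, without overlap (log2 fold change -0.14, SE 0.047, limma adjusted p = 0.2501). HK2 (ENSG00000159399, chromosome 2) was at 3.93, 4.48 and 4.04 FPKM in control and at 4.68, 4.82 and 4.75 FPKM in overexpressing cells. These groups did not overlap either, in the opposite direction, and the test was not passed (log2 fold change 0.16, SE 0.095, limma adjusted p = 0.541).

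GPI, which turns glucose 6-phosphate into fructose 6-phosphate, and the liver-type phosphofructokinase PFKL had all 3 overexpression values below all 3 control values. GPI (ENSG00000105220, chromosome 19) was at 363.78, 349.54 and 344.30 FPKM in control and at 324.09, 325.49 and 317.10 FPKM in overexpressing cells (log2 fold change -0.13, SE 0.043, limma adjusted p = 0.257). PFKL (ENSG00000141959, chromosome 21) was at 69.64, 62.60 and 64.04 FPKM in control and at 58.43, 58.71 and 61.51 FPKM in overexpressing cells (log2 fold change -0.13, SE 0.056, limma adjusted p = 0.368). For PFKL the gap was small, since overexpression replicate 3 lay close to control replicate 2, and without control replicate 1 the log2 fold change was -0.087. The muscle-type PFKM overlapped between groups, at 37.37, 38.19 and 36.20 FPKM in control and at 36.20, 36.58 and 39.50 FPKM with overexpression. So did the platelet-type PFKP, the most abundant phosphofructokinase here, at 114.46, 107.76 and 108.53 FPKM in control and at 105.38, 104.58 and 108.08 FPKM with overexpression. ALDOA, which splits fructose 1,6-bisphosphate, was at 1374 ± 67.1 and 1382 ± 33.7 FPKM, and TPI1, which interconverts the resulting trioses, at 767 ± 45.4 and 781 ± 35.1 FPKM. ALDOC was within 0.26 to 0.70 FPKM in the control libraries and 0.34 to 0.74 FPKM in the overexpression libraries.

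In the pay-off phase PKM alone had groups that did not overlap. PKM (ENSG00000067225, chromosome 15), which makes pyruvate and ATP, was at 1956.56, 1985.57 and 1934.57 FPKM in control and at 1919.00, 1778.18 and 1776.94 FPKM in overexpressing cells. Overexpression replicate 1 lay nearer to the control libraries than to the other two overexpression libraries, and PKM did not pass (log2 fold change -0.10, SE 0.050, limma adjusted p = 0.439). Its splice forms PKM1 and PKM2 are not separated in the tables. GAPDH was at 3468 ± 170 FPKM in control cells against 3550 ± 181 FPKM in overexpressing cells, a difference smaller than the spread between replicates. PGK1 (phosphoglycerate kinase 1) was at 583 ± 52.6 and 587 ± 25.4 FPKM, PGAM1 (phosphoglycerate mutase 1) at 687 ± 25.5 and 669 ± 5.35 FPKM, and ENO1 at 1568 ± 46.5 and 1582 ± 42.01 FPKM. ENO2, the neuronal enolase, was at 22.7 ± 1.75 and 20.9 ± 0.537 FPKM, with overlapping groups. Several members have processed copies in the genome: GENCODE 29 names 62 pseudogenes after GAPDH, 39 after BNIP3 and 13 after PGAM1, and none of the 145 pseudogenes named after members is listed in the tables, so how reads shared with them were assigned is uncertain.

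Lactate dehydrogenase is a tetramer of the LDHA and LDHB subunits, LDHA being the one that HIF-1 induces. LDHA (ENSG00000134333, chromosome 11) was at 21.82, 23.33 and 23.96 FPKM in control and at 22.42, 23.75 and 22.94 FPKM in overexpressing cells. LDHB (ENSG00000111716, chromosome 12) was at 471.68, 475.55 and 465.41 FPKM in control and at 442.93, 490.34 and 467.77 FPKM in overexpressing cells. LDHB thus made up between 95.1% and 95.6% of the summed FPKM of both subunits in each library, and LDHA ranked 4748 among all Ensembl genes where LDHB ranked 179. Neither differed between groups beyond its spread, with 95% intervals of the log2 fold change from -0.14 to 0.14 for LDHA and from -0.12 to 0.096 for LDHB. GENCODE 29 names 6 pseudogenes after LDHA and 3 after LDHB, so their levels carry the same uncertainty over shared reads.

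PFKFB3 and PFKFB4 are bifunctional enzymes that set the level of fructose 2,6-bisphosphate, the activator of phosphofructokinase, and their estimates pointed in opposite directions. PFKFB4 (ENSG00000114268, chromosome 3) was at 7.76, 8.01 and 7.50 FPKM in control and at 9.05, 9.05 and 11.15 FPKM in overexpressing cells, without overlap (log2 fold change 0.29, SE 0.097, limma adjusted p = 0.261). PFKFB3 (ENSG00000170525, chromosome 10) was at 79.67, 92.91 and 103.56 FPKM in control and at 89.86, 64.91 and 71.23 FPKM in overexpressing cells. Here overexpression replicate 1 lay within the control range, and the log2 fold change of -0.29 (SE 0.12) did not pass either (limma adjusted p = 0.371). Without overexpression replicate 2 it was -0.19, and without overexpression replicate 1 it was -0.42. PDK1, the kinase that inhibits pyruvate dehydrogenase and so diverts pyruvate from the mitochondria, was at 2.31 ± 0.215 and 2.82 ± 0.378 FPKM with overlapping groups.

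The response genes of the list were mostly at low or middle levels. CA9 (ENSG00000107159, chromosome 9), a membrane carbonic anhydrase used as a hypoxia marker, was at 3.37, 2.24 and 1.93 FPKM in control and at 1.36, 1.04 and 1.88 FPKM in overexpressing cells. Control replicate 1 was the highest, and overexpression replicate 3 lay just under control replicate 3. The log2 fold change of -0.53 (SE 0.18) was the lowest among members, with a limma adjusted p of 0.279 and an interval from -0.94 to -0.11. ARHGEF39, which overlaps CA9 on the opposite strand, was at 8.96 ± 1.35 and 9.06 ± 0.486 FPKM, and its lowest value (7.83 FPKM) lay above the highest of CA9. CA12 lay within 0.040 to 0.18 FPKM in the control libraries and 0.040 to 0.12 FPKM in the overexpression libraries.

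HIF1A and the oxygen sensors did not pass the test. HIF1A (ENSG00000100644, chromosome 14) was at 124.29, 134.59 and 152.99 FPKM in control and at 143.01, 130.63 and 137.25 FPKM in overexpressing cells, all 3 overexpression values within the control range (log2 fold change 0.00086, 95% interval from -0.17 to 0.17). HIF1A is regulated mainly through the stability of its protein, which these data do not measure. EGLN3, a HIF-induced prolyl hydroxylase, was at 10.1 ± 0.605 and 9.28 ± 0.899 FPKM. Of the sensing machinery outside the list, EGLN1, the main prolyl hydroxylase, was at 24.2 ± 2.17 and 24.1 ± 1.28 FPKM, and VHL, the ubiquitin ligase subunit that recognises hydroxylated HIF, at 38.7 ± 1.15 and 37.5 ± 1.40 FPKM. HIF1AN, the asparagine hydroxylase that blocks HIF activity, was at 27.8 ± 1.72 and 25.04 ± 2.12 FPKM, ARNT, the constant partner of HIF1A, at 19.9 ± 1.62 and 18.1 ± 3.25 FPKM, and EPAS1 (HIF-2 alpha) at 3.60 ± 0.351 and 3.60 ± 0.531 FPKM. None of these 5 passed (limma adjusted p = 0.490 for HIF1AN and higher for the others).

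BNIP3 and BNIP3L are related outer-membrane receptors for the removal of mitochondria, and BNIP3L had the lowest p of all members. BNIP3L (ENSG00000104765, chromosome 8) was at 32.95, 33.47 and 32.02 FPKM in control and at 26.99, 27.12 and 28.73 FPKM in overexpressing cells. The lowest control value exceeded the highest overexpression value by more than the spread within either group, but the gene did not pass over all tested genes (log2 fold change -0.24, SE 0.056, limma adjusted p = 0.112). BNIP3 (ENSG00000176171, chromosome 10) was at 63.62, 64.43 and 59.02 FPKM in control and at 59.91, 66.51 and 60.95 FPKM in overexpressing cells, with overlapping groups (log2 fold change 0.0018, interval from -0.13 to 0.14).

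P4HA1 and P4HA2 are catalytic subunits that hydroxylate collagen prolines. P4HA1 was at 25.1 ± 1.00 and 25.4 ± 2.02 FPKM, and P4HA2 at 15.1 ± 0.634 and 15.1 ± 0.651 FPKM. KDM3A (ENSG00000115548, chromosome 2), a HIF-induced histone H3 lysine demethylase, was at 13.06, 11.05 and 12 FPKM in control and at 7.73, 10.92 and 8.58 FPKM in overexpressing cells. Overexpression replicate 2 lay just under control replicate 2, and KDM3A did not pass (log2 fold change -0.38, SE 0.12, limma adjusted p = 0.238). DDIT4 (ENSG00000168209, chromosome 10), a stress-induced inhibitor of mTORC1, was at 22.72, 20.93 and 18.93 FPKM in control and at 25.89, 21.90 and 24.32 FPKM in overexpressing cells, with overlap between overexpression replicate 2 and control replicate 1 (log2 fold change 0.20, SE 0.086, limma adjusted p = 0.391). ADM, the vasodilator peptide adrenomedullin, was at 10.5 ± 0.561 and 10.5 ± 0.695 FPKM, NDRG1, a stress-responsive protein, at 10.4 ± 0.629 and 9.83 ± 0.720 FPKM, and ANKRD37, a small ankyrin-repeat protein, at 5.10 ± 0.530 and 5.46 ± 0.672 FPKM. ANGPTL4 lay within 0.26 to 0.51 FPKM in the control libraries and 0.19 to 0.30 FPKM in the overexpression libraries.

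Isozyme use was expressed as each gene's share of the summed FPKM of the listed genes of its family in a library. Such a share does not depend on how libraries are scaled. BNIP3 with BNIP3L and SLC2A1 with SLC2A3 are pairs of related genes and not isozymes. In 10 families 12 shares were compared, and 5 had groups that did not overlap, 2 higher and 3 lower in overexpressing cells. No rate over other gene families was computed to set beside this count. The phosphofructokinase shares sum to the whole in each library, so they are not independent. HK2, PFKL, PFKFB4 and BNIP3L also had non-overlapping groups as single genes, so their shares rest on the same values. For each of the 5 non-overlapping shares the exact two-sided permutation test gave p = 0.1, the smallest that 3 libraries against 3 allow. It was 0.24 after Benjamini-Hochberg adjustment over the 12. The HK2 share of HK1 and HK2 was 4.59%, 5.12% and 4.51% in the control libraries and 5.67%, 6.10% and 6.03% in the overexpression libraries. The PFKFB4 share of PFKFB3 and PFKFB4 was 8.88%, 7.94% and 6.75% in control and 9.15%, 12.2% and 13.5% in overexpressing cells. The lowest of these overexpression values, in replicate 1, stood close to control replicate 1. On the lower side, BNIP3L made up 34.5% ± 0.588 of the BNIP3 and BNIP3L total in control and 30.7% ± 1.57 in overexpressing cells (SD, n = 3 per group). The PFKL share of phosphofructokinase was 30.7% ± 0.715 and 29.3% ± 0.108, and the ENO2 share of ENO1 and ENO2 1.43% ± 0.0732 and 1.31% ± 0.0283. For the ENO2 share the gap was small, with 1.344% in control replicate 3 and 1.325% in overexpression replicate 3. ENO3, outside the list and not counted in that share, was at 3.74 ± 0.457 and 4.14 ± 0.641 FPKM. The shares that overlapped were those of PFKM (17.5% ± 0.734 and 18.4% ± 0.412), PFKP (51.8% ± 0.178 and 52.2% ± 0.504), LDHB (95.3% ± 0.238 and 95.3% ± 0.102), SLC2A3 (3.40% ± 0.218 and 3.03% ± 0.380), P4HA2 (37.6% ± 0.688 and 37.3% ± 1.66), ALDOC (0.0326% ± 0.0187 and 0.0395% ± 0.0146) and CA12 (5.59% ± 3.89 and 6.64% ± 4.20). The last 2 rest on a gene under 1 FPKM.

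**Figure D3:**
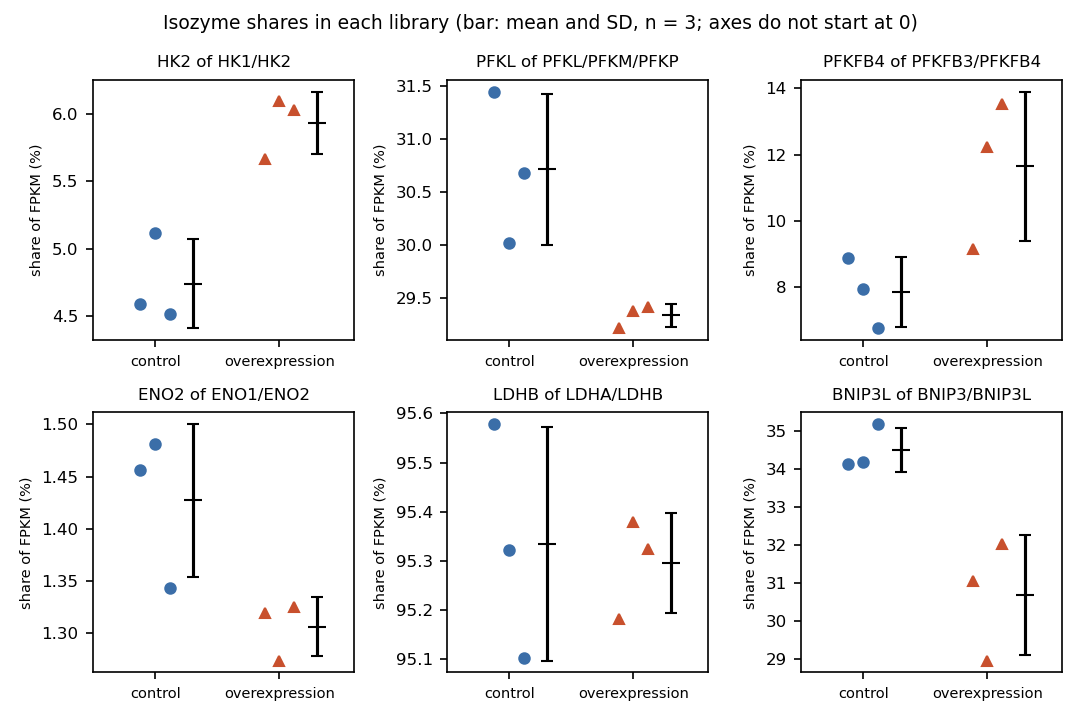
Share of 1 gene in the summed FPKM of its listed family (percent, vertical axes that do not start at 0) for 6 families. Each library is 1 point, with the mean and SD of 3 libraries beside them. The groups do not overlap for HK2, PFKL, PFKFB4, ENO2 and BNIP3L, and overlap for LDHB, which stays between 95.1% and 95.6%.

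Libraries of 1 group differed in the level of the enzymes. In control replicate 3 the 16 tested enzymes and lactate dehydrogenase subunits had a median deviation of -0.043 from each gene's mean log2(FPKM + 1) over the 6 libraries, against 0.051 in control replicate 1 and 0.021 in control replicate 2. Of the 16, 11 had their lowest control value in control replicate 3, the library with the lowest summed FPKM, where 37.0% of all tested genes did. Of the 18 other tested members 11 were also lowest there among the controls. GAPDH was at 3625.84, 3489.11 and 3288.73 FPKM in the control libraries and PGK1 at 623.51, 601.14 and 523.36 FPKM. In the overexpression libraries the median deviation was -0.034, 0.0038 and -0.014 for replicates 1 to 3, and 8 of the 16 had their highest overexpression value in replicate 2, against 32.3% of all tested genes. PGK1 in overexpressing cells was at 560.74, 611.34 and 589.09 FPKM, all within its control range. By this median of the 16 the overexpression libraries lay within the range of the control libraries. By the enzymes' percent of summed FPKM they did not all do so, since overexpression replicate 3, at 1.83%, lay below the lowest control library, at 1.85%. The 18 other tested members had medians of 0.033, 0.030 and 0.011 in control replicates 1 to 3. In overexpression replicates 1 to 3 these were 0.0044, -0.050 and 0.0020, all below the control medians. Over all 34 tested members, overexpression replicates 1 and 2 (-0.029 and -0.033) lay below the lowest control median (-0.017), and replicate 3 (-0.0073) did not. The median over all tested Ensembl genes lay between -0.0036 and 0.0055 in the 6 libraries.

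**Figure D4:**
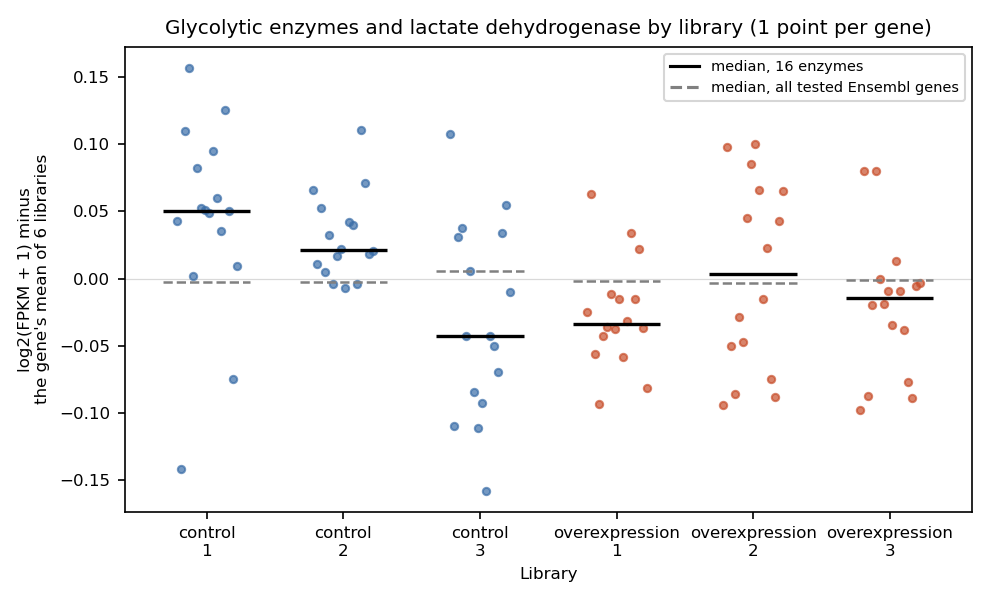
Deviation of log2(FPKM + 1) from each gene's mean of 6 libraries (vertical axis) for the 16 tested glycolytic enzymes and lactate dehydrogenase subunits, 1 point per gene, by library. The solid median is highest in control replicate 1 at 0.051 and lowest in control replicate 3 at -0.043, and the overexpression libraries lie between them, while the dashed median of all tested Ensembl genes stays near 0.

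The rest of the pathway gave no calls either. Of 41 other glycolysis and pyruvate genes 28 were tested, with 0 higher and 0 lower by limma, where 0.52% of all tested genes passed. At an unadjusted p under 0.05 in limma there were 3 (10.7%), against 12.7% of all tested genes. The median log2 fold change of the 28 was -0.019. The lowest adjusted p among them in limma was 0.298, for PDP1, the phosphatase that activates pyruvate dehydrogenase, at 13.8 ± 1.19 FPKM in control cells against 16.2 ± 0.699 FPKM in overexpressing cells without overlap. G6PC3, a glucose 6-phosphatase subunit, was at 119 ± 6.15 and 109 ± 2.97 FPKM, PDHA1, a pyruvate dehydrogenase subunit, at 99.4 ± 5.25 and 108 ± 4.20 FPKM, and SLC2A12, a glucose transporter, at 2.58 ± 0.305 and 1.97 ± 0.217 FPKM.

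Of 44 other genes of the HIF pathway and hypoxia response 38 were tested. By limma 0 were higher and 0 lower, where 0.52% of all tested genes passed. At an unadjusted p under 0.05 in limma there were 5 (13.2%), against 12.7% of all tested genes. The median log2 fold change of the 38 was -0.042. KLF10, a zinc-finger transcription factor, was at 12.50, 12.58 and 12.57 FPKM in control and at 14.74, 14.49 and 14.49 FPKM in overexpressing cells, tight groups that did not overlap (log2 fold change 0.20, SE 0.065, limma adjusted p = 0.2501). STC2, a secreted glycoprotein, was at 2.51, 2.95 and 4.53 FPKM in control and at 8.74, 4.46 and 4.71 FPKM in overexpressing cells. Overexpression replicate 1 was the highest and the other two lay near control replicate 3, so the groups overlapped (log2 fold change 0.66, SE 0.24, limma adjusted p = 0.290). AK4, a mitochondrial adenylate kinase, was at 29.5 ± 1.99 and 24.8 ± 2.98 FPKM, and GYS1, muscle glycogen synthase, at 36.8 ± 2.49 and 32.7 ± 0.688 FPKM.

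Of 8 reference genes named beside the list, 0 passed in limma, where 0.52% of all tested genes did. At an unadjusted p under 0.05 in limma there were 0, against 12.7% of all tested genes. ACTB was at 2773 ± 142 and 2720 ± 70.4 FPKM, PPIA at 3295 ± 108 and 3396 ± 159 FPKM and YWHAZ at 359 ± 1.96 and 349 ± 9.56 FPKM. SDHA was at 102 ± 1.47 and 96.8 ± 3.56 FPKM, lower in overexpressing cells without overlap, and did not pass (limma adjusted p = 0.539). HPRT1 was at 68.0 ± 3.25 and 70.7 ± 5.95 FPKM, RPLP0 at 1342 ± 67.0 and 1236 ± 93.9 FPKM, and TBP at 13.2 ± 1.36 and 13.1 ± 0.972 FPKM.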

How the data were processed

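Stranded, poly(A)-selected libraries were made from DNase-treated RNA per the labels' protocols, whereas the series' design text describes cytoplasmic RNA without that selection. The authors deposited 1 table of gene-level FPKM per library, rounded to 2 decimals. Tools named in the submitters' processing notes are Cufflinks 2.2.1, RSEM 1.3.1, TopHat, Bowtie and edgeR, and the build is hg18; their roles are not given. FPKM keeps no read totals, and low values showed no steps clear enough to recover whole fragments.

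Symbols matched 19447 of 20330 identifiers. The groups were compared over the 11731 genes and loci that every table lists and that average 1 FPKM or more, using limma 3.58.1 under R 4.3.3 (limma-trend on log2(FPKM + 1), group as the only term, two-sided, Benjamini-Hochberg adjustment over all, threshold 0.05), after testing on simulated data. Fold changes are on that scale and understate those of low genes. Shares were compared by exact permutation in scipy 1.17.1. Chromosomes, overlaps and pseudogenes come from GENCODE 29. Per-library values are given for members whose groups do not overlap, for their isozyme partners and for a few others (LDHA, LDHB, DDIT4, HIF1A, GAPDH, PGK1 and, outside the list, KLF10 and STC2) chosen after their values were seen. The members and lists were chosen with earlier results of these data known. TXNIP and PECAM1 were not analysed here. Cell type markers are given mainly as counts and sums over each list, and 1 reference gene is not reported here. Alternatives covered the pseudocount (0.1), the filter, scaling, weights, trend, a replicate block and leaving out each library.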

Additional observations from a re-analysis of the deposited data

How the results depend on the processing

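No member and no gene of the 3 other lists passed in limma under any of 13 alternatives. The lowest adjusted p of a member was 0.0526, for BNIP3L with array quality weights, while its adjusted p ran up to 0.372 without control replicate 2. Over all tested genes, 61 passed, against 22 with no filter on low values, 197 with array quality weights, 1 without a trend and, with single libraries left out, between 1 and 63. Deviations of same-numbered libraries from their group means correlated between -0.056 and 0.049, and 2 of 6 libraries correlated best with their own number. These correlations cannot show whether same-numbered libraries were handled together. With the replicate number as a block 19 genes passed, 0 of them members. In that limma fit 7 members were at an unadjusted p under 0.05, and the share of all tested genes was not computed. By construction the mean within-number difference of a share equals the difference of the group means, such as 1.19 percentage points for HK2. Only the p can change, and for HK2 the exact sign-flip p was 0.25, the smallest that 3 pairs allow.

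The median log2 fold change of the members (-0.0046) was -0.040 under quantile normalization, and between -0.048 (without control replicate 3) and -0.0050 with 1 library left out, against a spread of 0.025 between libraries. Of 34 members, 19 kept their direction under all alternatives and 15, all with estimates within 0.05 of 0, did not. The replicate block, the open filter and the fit without a trend leave an estimate unchanged by construction, so they could turn none. Rescaling to TPM turned PFKM (-0.0081), ALDOA (-0.0041), PGK1 (-0.00024), ENO1 (-0.0017), LDHA (-0.013), HIF1A (-0.013) and BNIP3 (-0.012). Quantile normalization turned ALDOA (-0.051), TPI1 (-0.0033), PGK1 (-0.079), LDHA (-0.0040), HIF1A (-0.0060), P4HA2 (0.00078), BNIP3 (-0.0035) and ADM (0.0060). Array quality weights turned SLC16A3 (-0.0064), ALDOA (-0.010), PGK1 (-0.017), ENO1 (-0.0020), P4HA2 (0.0092) and BNIP3 (-0.025). With 1 library left out, the log2 fold change ran from -0.071 to 0.0058 for SLC2A1, -0.049 to 0.11 for SLC16A3, -0.033 to 0.029 for PFKM, -0.030 to 0.039 for ALDOA, -0.024 to 0.057 for TPI1, -0.0079 to 0.066 for GAPDH, -0.061 to 0.065 for PGK1, -0.0095 to 0.035 for ENO1, -0.036 to 0.028 for LDHA, -0.049 to 0.024 for LDHB, -0.068 to 0.081 for HIF1A, -0.048 to 0.054 for P4HA1, -0.032 to 0.031 for P4HA2, -0.044 to 0.031 for BNIP3 and -0.053 to 0.033 for ADM. The cause was not tested.

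Of the 12 shares, 8 kept their direction throughout, though the within-number setting could not change it. With 1 library left out the difference in percentage points ran from -0.00037 to 0.0176 for ALDOC, -0.155 to 0.0821 for LDHB, -1.16 to 3.33 for CA12 and -1.04 to 0.609 for P4HA2, and for PFKFB4, which kept its direction, from 2.84 to 5.03.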
